A study of Drosophila melanogaster with 8 samples.

Results

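The regions described here are the histone H1-enriched stretches along the body of the X chromosome of Drosophila melanogaster, mapped by chromatin immunoprecipitation and sequencing (ChIP-seq). They were chosen by position alone: every region of the authors' combined list on X whose midpoint lay in X 1000001-21900000 (FlyBase r5), which leaves out the stretch next to the telomere and the stretch next to the centromere. This gave 1866 of the 2026 combined-list regions on X, and of 16190 in all. The material was wild-type Oregon-R embryos at 14 to 16 h of development, with no treatment or mutation named in the labels. The 8 libraries fall into 4 from H1 immunoprecipitation, each with its own region list, and 4 from input chromatin, whose values were not analysed here. All replicates belong to 1 group. The labels name no separate embryo collections for them, and p-values then measure only the spread between these libraries, which may be technical. The labels give no sex for the embryos.

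Linker histone H1 binds where DNA enters and leaves the nucleosome and helps to fold chromatin into more compact fibres. In flies it is abundant over silent and heterochromatic sequence and is generally scarcer at the promoters of active genes. The fly X is present as a single copy in males, where the MSL complex raises its transcription and acetylates histone H4 along its active genes. The body of X is mostly euchromatin, in which gene-rich stretches alternate with stretches of few active genes.

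The 4 replicate lists held 265, 181, 225 and 274 regions in the X body for replicates 1 to 4. The lists hold no read counts, so depth is unknown and a stretch without a region is not shown to lack H1. With no sex given, X may have been present at fewer copies than the arms. The part of copy number in the differences between X and the arms was not tested. Across all sequences these lists held 2185 to 3410 regions. For comparison, the bodies of the autosomal arms 2L, 3L and 3R were taken with the same lengths left out at their ends, 1.0 Mb at the telomere side and 0.52 Mb at the centromere side. These bodies held 2789, 2808 and 3490 combined-list regions. The first and last regions inside the X bounds were X 1007101-1008155 and X 21865506-21867482. Their nearest neighbours outside the bounds were X 989813-990846 and X 21918692-21920116.

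H1 regions were sparser, slightly narrower and farther apart on the X body than on the 3 arms in every replicate list. Regions covered 2.02%, 1.40%, 1.71% and 2.08% of the X body in replicates 1 to 4, against 4.01%, 3.06%, 4.06% and 4.84% of the 3 arm bodies together. The X values did not overlap those of the arms. The log2 ratio of covered shares was -1.15 ± 0.11 (SD, n = 4), which is 2.22-fold lower on X. The density was 11.3 ± 2.0 regions per Mb on the X body and 24.0 ± 4.0 per Mb on the arms (SD, n = 4). The gap from each region to the next had a median of 24319.5, 52463.5, 45858 and 28613 bp on X and of 15273, 20382, 14765 and 11933.5 bp on the arms. X therefore had the longer median gap within each replicate, with a mean log2 ratio of 1.23 ± 0.41 (SD, n = 4). The size of that ratio varied, from 0.67 in replicate 1 to 1.63 in replicate 3.

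**Figure D1:**
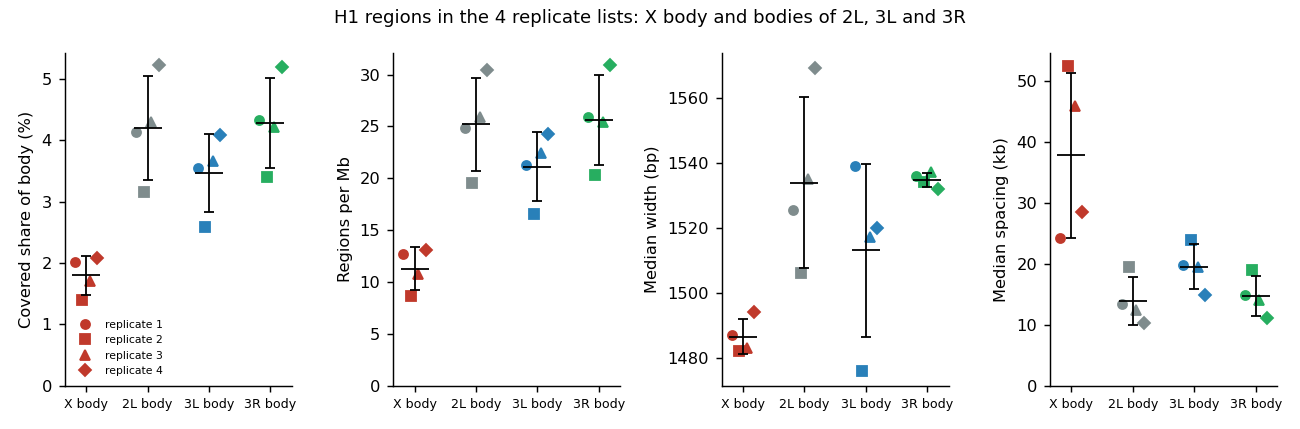
Each point is 1 replicate list and each bar the mean ± SD of 4, for the X body on the left and the bodies of 2L, 3L and 3R beside it. Panels show the covered share (%), regions per Mb, median width (bp, on an axis that does not start at 0) and median spacing (kb). The X points lie below all arm points for covered share and density and above them for spacing, and the width of replicate 2 on 3L, at 1476 bp, lies below the X values.

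Among the arms, 3L was nearest to X. The covered share of X was 1.92-fold lower than that of 3L, 2.33-fold lower than that of 2L and 2.38-fold lower than that of 3R, each in 4 of 4 replicates. The arm bodies kept their densest stretches. In the combined list their most covered 200 kb tiles reached 69.9% on 2L, 54.6% on 3L and 69.9% on 3R. The part of such stretches in the differences from X was not tested. The median width in the replicate lists was 1486.5 ± 5.4 bp on X and 1529 ± 13 bp on the arms (SD, n = 4). That difference of 1.03-fold was lower on X in 4 of 4 replicates against 2L, 3R and the pooled arms, and in 3 of 4 against 3L. For covered share, density, spacing and width, the exact two-sided sign-flip permutation test against the pooled arms gave p = 0.125. After Benjamini-Hochberg adjustment over 28 comparisons p was 0.146. With 4 replicates p cannot go below 0.125, so no such difference could pass 0.05.

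In the combined list X was likewise below each arm in covered share and width. Compared with the replicate lists, the covered share differed less from the pooled arms, by 1.69-fold, and the width more, by 1.11-fold. Its regions covered 14.8% of the X body and 26.2%, 22.9% and 25.9% of the bodies of 2L, 3L and 3R. Their median width was 1444 bp on X and 1669, 1532 and 1604.5 bp on 2L, 3L and 3R. The share of wide regions differed more: 5.79% of X regions were wider than 3 kb, against 15.0%, 11.5% and 13.1% on the 3 arms. At the other end, 40.0% of X regions were narrower than 1301 bp, the shortest width in the replicate lists, against 32.4% on the arms together. The widest X region, X 6314236-6321039, spanned 6804 bp, against 10259, 12533 and 11911 bp for the widest on 2L, 3L and 3R.

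How sparse X appears depended on the authors' score, 1 number per region. Its scale is unknown, and it serves here to order and describe regions of the same list. When the regions of the 4 bodies in the combined list were ranked by score, X held 3.01% of the lowest 10% and 57.5% of the highest 10%, against 17.0% of all of them. In regions per Mb, the lowest band held 1.58 on X and 15.0 on the arms, which is 9.50-fold lower on X. The highest band held 30.1 per Mb on X and 6.57 on the arms, which is 4.59-fold higher on X. X and the arms thus differed in opposite directions at the 2 ends of the score scale. Each 10% band held 1093 to 1098 regions of the 4 bodies together. A band with more X regions therefore had fewer arm regions, and the 2 trends are not separate observations.

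The replicate lists showed the same reversal. In their lowest 10% by score, X held 1, 2, 4 and 5 regions and the arms held 196, 148, 192 and 226. In their highest 10%, X held 106, 82, 95 and 90 regions and the arms held 92, 70, 102 and 148. The X body spans 20.9 Mb, against 21.5, 23.0 and 26.4 Mb for the bodies of 2L, 3L and 3R. Per Mb the highest band was 3.91, 3.97, 3.16 and 2.06 times as dense on X as on the arms, a mean of 3.28 ± 0.89 (SD, n = 4). Over the upper 50% of scores the ratio was 0.88 ± 0.09, and over the lower 50% it was 0.13 ± 0.03 (SD, n = 4). The shortfall of X thus lay mainly among the lower scores, in 4 of 4 replicates. The part of X copy number in it was not tested.

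**Figure D2:**
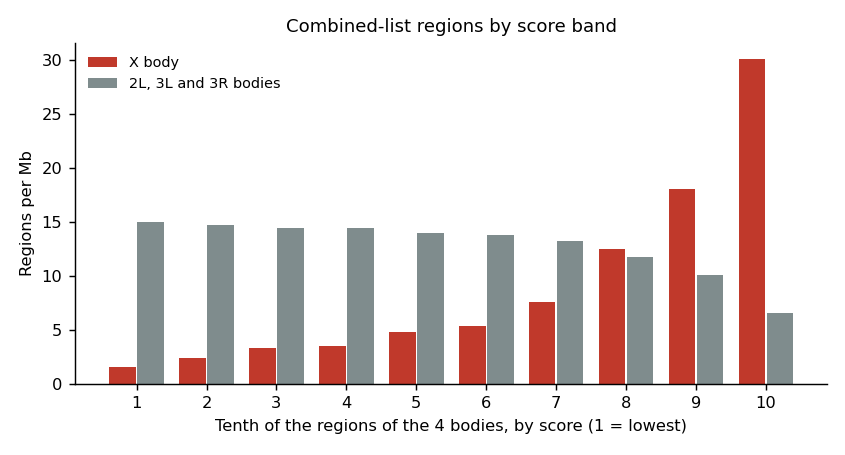
Bars give combined-list regions per Mb in the X body and in the bodies of 2L, 3L and 3R together, for each 10% of the regions ranked by score, lowest on the left. The X bars climb from 1.58 to 30.1 per Mb, and the arm bars fall off from 15.0 to 6.57 per Mb. As each band holds about the same number of regions, the fall of the arm bars follows from the climb of the X bars.

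The shift of score was present at every width. Among combined-list regions narrower than 1301 bp the median score was 0.47 on X and 0.40 on the arms. For regions of 1301 bp to 2 kb it was 0.43 and 0.37, for those of 2 to 3 kb 0.46 and 0.40, and for those wider than 3 kb 0.45 and 0.40. X scores were thus higher in each width class. In replicates 1 to 4 the median score was 0.673, 0.813, 0.680 and 0.617 on X, against 0.578, 0.684, 0.581 and 0.549 on the pooled arms, higher on X in 4 of 4. As the zero of the score is unknown, no fold is given for it.

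Along X the regions lay in short dense blocks parted by long empty stretches. In 104 tiles of 200 kb the covered share of the combined list ran from 0 to 42.0%, with a median of 13.6% and quartiles of 7.00% and 21.4%. The 10 most covered tiles held 373 regions, 20.0% of those in all tiles, and the 10 least covered held 27. Some neighbouring tiles differed widely. X 4400001-4600000 was covered at 2.54% and the adjoining X 4600001-4800000 at 42.0%, the highest share of the X body. Likewise X 10600001-10800000 stood at 1.85% beside X 10800001-11000000 at 29.4%, and X 17600001-17800000 at 1.01% beside X 17800001-18000000 at 27.7%. The median step between adjoining tiles was smaller on X in percentage points, at 8.13, against 10.7, 10.4 and 10.2 on 2L, 3L and 3R. Relative to the lower mean it was larger, at 0.55 of the mean covered share on X, against 0.41 on 2L, 0.45 on 3L and 0.39 on 3R. X tiles held fewer regions, with a mean of 17.9, against 26.0, 24.4 and 26.4 on 2L, 3L and 3R. The part of this in the relative step was not tested.

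**Figure D3:**
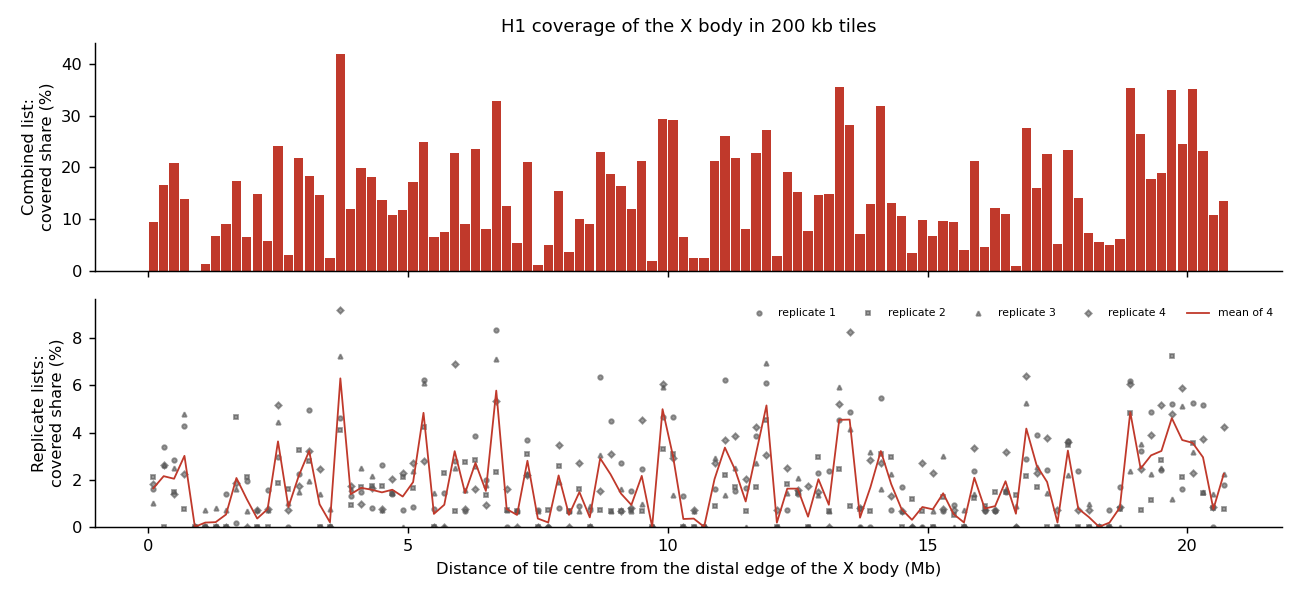
Covered share (%) of 104 tiles of 200 kb against the distance of the tile centre from the distal edge of the X body (Mb), for the combined list (bars) and the 4 replicate lists (points, with their mean as a line). Peaks such as the 42.0% tile stand directly beside nearly empty tiles, and the mean of the replicates is high in the tallest bars, while single replicates scatter widely, such as 4.10% to 9.22% in the 42.0% tile.

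The replicate lists had regions in each of the 10 most covered tiles, in 4 of 4 lists. The densest tile, X 4600001-4800000, was covered at 4.62%, 4.10%, 7.26% and 9.22% in replicates 1 to 4. The next were X 14200001-14400000 at 35.6% in the combined list and 4.54% ± 1.50 in the replicate lists, and X 19800001-20000000 at 35.4% and 4.86% ± 1.76 (SD, n = 4). Then came X 21000001-21200000 at 35.2% and 3.56% ± 1.25, and X 20600001-20800000 at 35.0% and 4.61% ± 2.52 (SD, n = 4). Of these 5 tiles, 3 began at or beyond X 19800001, towards the centromere. The other 5 most covered tiles began at X 7600001, 15000001, 10800001, 11000001 and 14400001 and were covered at 28.1% to 32.9%.

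The least covered tile, X 1800001-2000000, held no region in the combined list or in any replicate list. X 10600001-10800000 and X 11600001-11800000 held 3 and 4 combined-list regions and none in the replicate lists. The other 7 of the 10 least covered tiles began at X 17600001, 8400001, 2000001, 11400001, 4400001, 13000001 and 3600001 and were covered at 1.01% to 3.05%. Over all 10, the replicate lists held 1, 4, 6 and 3 regions, against 67, 42, 49 and 68 in the 10 most covered tiles. As sets, these tiles differed in the same direction in every replicate list, but the combined list may rest on those lists. Single tiles did not always follow. X 3600001-3800000, among the least covered, reached 1.61% in replicate 2, above the 1.40% of its X body. X 14400001-14600000, among the most covered, had 0.898% in the same replicate, and X 20600001-20800000 had 1.18% in replicate 3, below the 1.71% of its X body.

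A comparison that avoids that dependence chose tiles with 3 replicates and measured them in the remaining replicate. In the 10 tiles with the highest mean of the other 3 lists, replicates 1 to 4 covered 4.90%, 3.07%, 4.83% and 5.12%. Their shares of the whole X body were 2.02%, 1.40%, 1.71% and 2.08%. The held-out share was 2.47-fold higher in the dense tiles, with a log2 ratio of 1.30 ± 0.15 (SD, n = 4). In the 10 tiles with the lowest mean of the other 3 lists, the held-out replicates covered 0.653%, 0.192%, 0.397% and 0.885%, and 5, 8, 5 and 4 of the 10 tiles were empty again. That is 3.89-fold lower than the whole body, with a log2 ratio of -1.96 ± 0.70 (SD, n = 4). Both ratios had the same sign in 4 of 4 replicates, and the exact two-sided sign-flip test gave p = 0.125 for each, also after adjustment over both. The 4 values behind each p are not independent, since each replicate also helped to choose the tiles of the others. Ties between tiles were broken by position.

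At the scale of single blocks, the combined list held 112 runs in the X body, a run being 5 or more regions with no gap above 5 kb between neighbours. They contained 959 regions, 51.4% of the members, on 14.7% of the body, and were covered at 55.2% inside. By the same definition no replicate list held a run in the X body. On the arms the replicate lists held 1 to 6 runs on 2L, 0 to 1 on 3L and 2 to 10 on 3R. A typical run of the combined list on X was short, with a median of 7 regions over 22.0 kb. The longest, X 11084611-11184112, had 30 regions over 99.5 kb and was covered at 52.3%. It held 5, 4, 1 and 4 regions of replicates 1 to 4. The next, X 14205533-14295424, had 27 regions over 89.9 kb, with 5, 1, 4 and 6 replicate regions. Of the 10 runs with most regions, 7 held regions of all 4 replicates and 3 held regions of 3.

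The other 8 of those runs had 16 to 19 regions each over 46.9 to 69.4 kb. They were X 10509484-10574796, X 15123889-15185626, X 9699891-9766752, X 10900561-10969942, X 20717512-20779768, X 4729283-4779371, X 15061409-15108320 and X 17838798-17887882. Members in runs were wider than those standing alone. Their median width was 1550 bp, against 1168.5 bp for the 72 members with no neighbour within 20 kb. At least 1 replicate list touched 39.4% of the members in runs and 12.5% of those standing alone. A wide region is touched more readily than a narrow one, and the part of width in this difference was not tested.

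Long gaps took up more of X than of the other bodies. Gaps of 50 kb or more between neighbouring combined-list regions numbered 75 on X and 36, 45 and 55 on 2L, 3L and 3R. Together they spanned 31.6% of the X body, against 13.4%, 14.6% and 15.4% of the arm bodies. Gaps of 100 kb or more numbered 19 on X, against 8, 4 and 9 on the arms. Of tiles of 50 kb, 59 of 418 on X had no combined-list region (14.1%), against 4.90% to 6.07% on the arms. At this scale the combined list thus left more of X empty by each of these counts. In the replicate lists, gaps of 50 kb or more were fewer on X, at 87 to 105. They numbered 111 to 121 on 2L, 119 to 137 on 3L and 143 to 152 on 3R. Their share of the body was still larger on X, at 82.9% to 90.1%. It was 66.5% to 74.1% on 2L, 67.4% to 77.9% on 3L and 65.6% to 74.0% on 3R.

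The longest gap, X 1700542-2095867, spanned 395326 bp, against 153465, 172275 and 132988 bp for the longest on 2L, 3L and 3R. No replicate list had a region inside it. In replicates 1 to 4 the empty stretch around it was 761, 984, 400 and 1010 kb long, and in replicate 4 it was the longest gap of the X body. It was followed after a short island of regions by another gap, X 2100973-2241835, of 141 kb. Of the 10 longest gaps, 8 had no region of any replicate, though the combined list that defines the gaps may rest on the replicate lists. The exceptions were X 13059483-13244201, of 185 kb, with 1 region of replicate 3, and X 17685977-17823994, of 138 kb, with 1 region each of replicates 2 and 3. The others were X 8918622-9091697, X 3554016-3724109, X 8423784-8568811, X 10595742-10732818, X 15677905-15807300 and X 16432124-16557389, of 125.3 to 173.1 kb.

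Over all 75 gaps of 50 kb or more, 48 had no replicate region. The gaps held 4, 11, 13 and 4 regions of replicates 1 to 4, or 1.51%, 6.08%, 5.78% and 1.46% of their X body lists. Replicates 2 and 3 thus placed more of their regions in the gaps. The combined list also held fewer of their regions on X, at 59.1% and 64.9%, against 96.6% and 94.2% for replicates 1 and 4. On 2L, 3L and 3R the shares were 75.3% to 83.1% for replicates 2 and 3, and 95.2% to 98.3% for replicates 1 and 4. On X the combined list thus held nearly all regions of replicates 1 and 4 and fewer of the other 2 lists. Few regions of replicates 1 and 4 could therefore lie in its gaps, and their absence there is no independent support.

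Because sparse regions leave longer gaps, the layout was also compared after each arm was reduced to its highest-scoring regions, down to the 89.3 regions per Mb of the X body. The median gap was then shorter on X, at 2814 bp, than on 2L, 3L and 3R, at 3601.5, 3683 and 3460 bp. Before the reduction it had been longer on X than the 1688, 2212 and 1673 bp of the arms. Long gaps still took up more of X, 31.6% against 20.1%, 21.2% and 23.7%. Runs then held more of the X regions, 51.4% against 41.8%, 38.4% and 40.1%, whereas before the reduction they held 51.4% on X and 68.1%, 58.9% and 68.4% on the arms. At equal density X thus had both a shorter median gap and more sequence in long gaps. When only the upper scores of the combined list were kept, from its median score up, X was the denser, at 72.4 regions per Mb against 49.3, 52.2 and 53.6. Long gaps then took up 36.7% of X and 39.5%, 37.6% and 36.7% of 2L, 3L and 3R. The larger share of long gaps on X was thus not seen at that score, where the densities were unequal. The longest gap was still 395 kb on X, against 253, 245 and 261 kb on 2L, 3L and 3R.

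**Figure D4:**
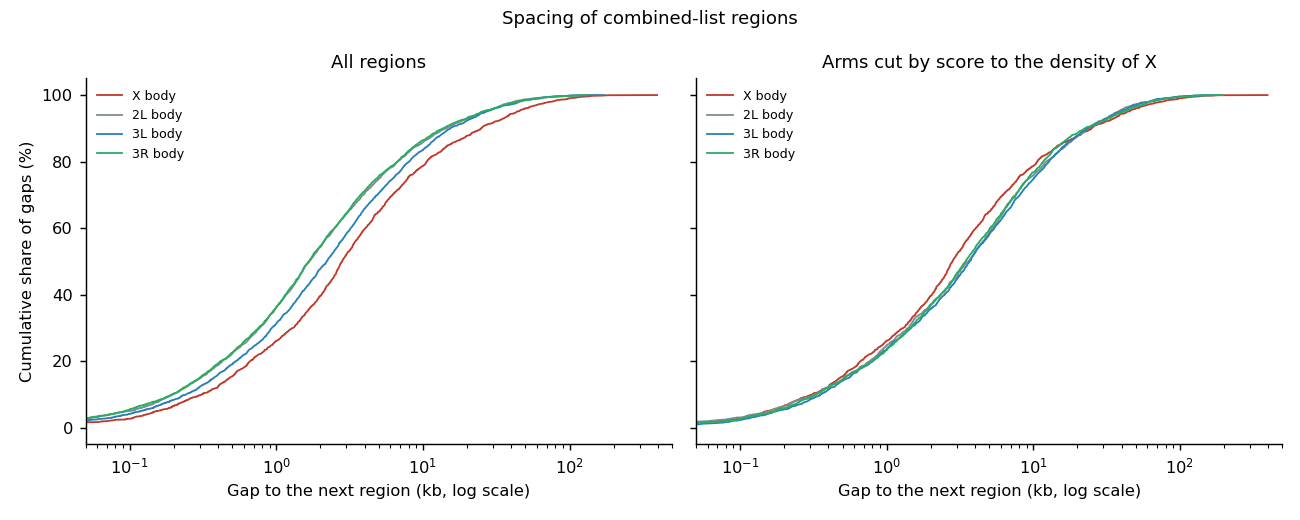
Cumulative share (%) of gaps between neighbouring combined-list regions against gap length (kb, log scale), for the X body and the bodies of 2L, 3L and 3R. With all regions, on the left, the X curve lies to the right of the others. With the arms cut by score to the density of X, on the right, it lies above them at a few kb, where its median is 2814 bp, and below them at long gaps, up to 395326 bp.

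Clumping was measured as the variance of region counts over tiles minus their mean, divided by the mean squared, which does not scale with density. In the combined list it was 0.56 on X and 0.26, 0.25 and 0.27 on 2L, 3L and 3R in tiles of 50 kb. It was 0.44 and 0.20 to 0.23 in tiles of 100 kb, and 0.28 and 0.14 to 0.16 in tiles of 200 kb. After the arms were cut to the density of X, the 50 kb values of the arms were 0.23 to 0.29, still below X.

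The replicate lists showed smaller differences. In tiles of 50 kb the clumping of X was 1.20, 0.74, 0.81 and 0.85 in replicates 1 to 4, against 0.67, 0.63, 0.69 and 0.80 for the pooled arms. The mean difference was 0.20 ± 0.22 (SD, n = 4) and positive in 4 of 4, with an exact sign-flip p of 0.125. Replicate 1 carried most of it, and without replicate 1 the mean was 0.096. In tiles of 200 kb the difference was 0.02 ± 0.09 (SD, n = 4), positive in 3 of 4 replicates, with an exact p of 0.625. Greater clumping of X at 200 kb was therefore seen in the combined list and was not detectable in the replicate lists.

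The blocks of X were short along the chromosome. Covered shares of adjoining 50 kb tiles in the combined list had a Pearson's r of 0.36 on X, against 0.55, 0.47 and 0.52 on 2L, 3L and 3R, over 417 to 526 pairs of tiles. For tiles 100 kb apart r was 0.02 on X and 0.24, 0.18 and 0.20 on the arms. In the replicate lists r at 100 kb was -0.01 ± 0.06 on X, with a highest value of 0.05. It was 0.21 ± 0.03 on 2L, 0.12 ± 0.04 on 3L and 0.12 ± 0.05 on 3R (SD, n = 4). The X values lay below those of each arm without overlap, although the lowest value of 3R was also 0.05 after rounding. Tiles of an arm share their library and their neighbours. X tiles held fewer regions, and the part of this in the replicate values was not tested. With the arms cut to the density of X in the combined list, r at 100 kb was still 0.19 to 0.22 on the arms.

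**Figure D5:**
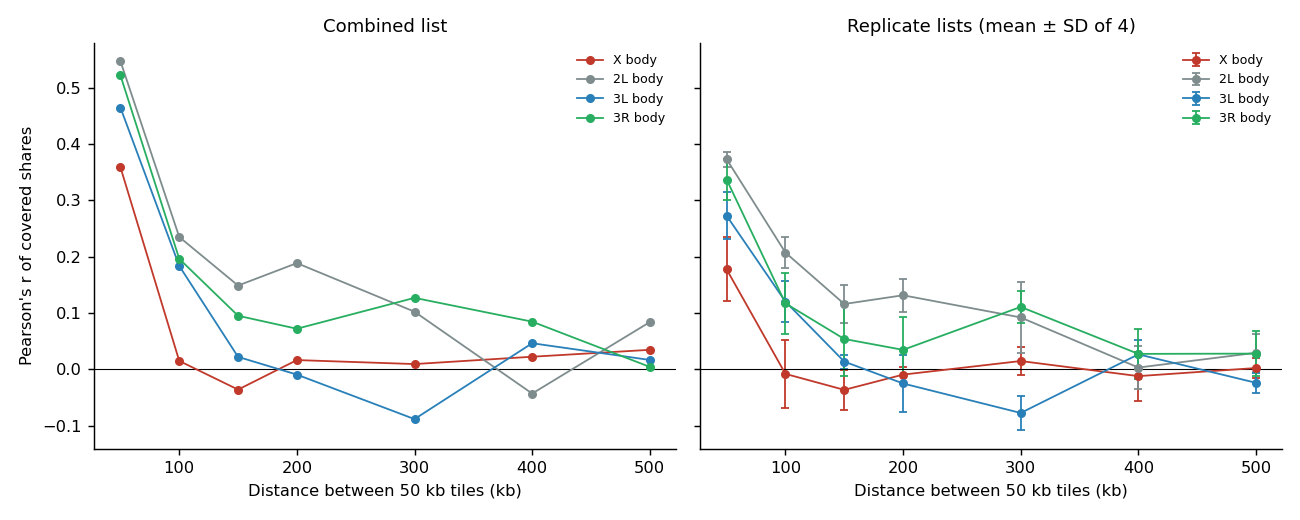
Pearson's r between covered shares of 50 kb tiles against their distance (kb), for the X body and the bodies of 2L, 3L and 3R, in the combined list (left) and as the mean ± SD of the 4 replicate lists (right). The X line drops to about 0 at 100 kb, where it is 0.02 in the combined list, while the arms stand at 0.18 to 0.24 there.

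Mean covered shares differed little between the ends of the body, and single replicates did not share a direction. In 3 equal parts from the telomere side to the centromere side, the replicate lists covered 1.83% ± 0.21, 1.77% ± 0.43 and 1.80% ± 0.39 (SD, n = 4). Replicate 3 fell from 2.00% to 1.64% and 1.51%, and replicate 4 rose from 1.89% to 2.10% and 2.25%. Replicate 1 covered 1.925%, 2.11% and 2.02%, and replicate 2 covered 1.52%, 1.22% and 1.44%. The combined list covered 14.3%, 14.9% and 15.2% of them, with median widths of 1485, 1451 and 1419 bp. At the scale of 1 Mb, X 20000001-21000000 was the most covered window, at 24.5% in the combined list and 3.40% ± 0.74 in the replicate lists (SD, n = 4). X 12000001-13000000 followed at 21.2% and 3.02% ± 0.76 (SD, n = 4). The least covered window of the combined list was X 2000001-3000000, at 8.22%, with 0.828% ± 0.411 in the replicate lists (SD, n = 4). Next came X 8000001-9000000 at 9.59% and 1.20% ± 0.14, and X 16000001-17000000 at 10.2% and 0.994% ± 0.370 (SD, n = 4).

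Members were supported by the replicate lists less often than combined-list regions of the arms. Of the 1866 members, 632 (33.9%, 95% Wilson interval 31.8% to 36.0%, counting error only) were touched by at least 1 replicate list over 1 bp or more, against 44.2% of all combined-list regions. The share was 48.3%, 43.9% and 48.8% on 2L, 3L and 3R. At least 2 lists touched 140 members (7.50%), against 14.0% of all regions. At least 3 lists touched 18 (0.965%), against 3.56%, and all 4 lists touched 1 (0.0536%), against 0.729%. Each of these shares was below the background, in parallel with the lower covered share of the replicate lists on X.

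Each single replicate list touched 13.6%, 6.22%, 8.57% and 14.0% of the members, against 17.7%, 12.9%, 16.7% and 21.0% of the arm regions. The log2 ratio was -0.75 ± 0.32 (SD, n = 4), lower on X in 4 of 4, with an exact sign-flip p of 0.125, adjusted 0.146. Width went with support: 16.4% of members narrower than 1301 bp were touched by at least 1 list, 35.6% of those up to 2 kb, 61.3% of those of 2 to 3 kb and 79.6% of the wider ones. On the arms the shares were 22.2%, 44.1%, 69.8% and 88.1% in the same classes. X was thus lower within each width class.

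The member touched by all 4 lists was X 12740011-12746422, which at 6412 bp was also the second widest of the X body. The other 17 members touched by 3 lists spanned 2212 to 6257 bp, and the median width of all 18 was 3794.5 bp. Members touched by no list had a median of 1295 bp. Replicates 1, 3 and 4 touched 16, 16 and 17 of the 18 and replicate 2 touched 6. They were spread along the body. The distal ones were X 1616280-1622035, X 3548342-3552399, X 4187188-4190102, X 4714576-4718025, X 4729283-4734170, X 6280197-6284753, X 6351808-6355882, X 7769400-7772811, X 8222860-8226414 and X 9750704-9754008. The others were X 12003053-12007019, X 13409960-13413581, X 14408704-14414960, X 17838798-17841618, X 18083447-18085658, X 20882649-20886935 and X 21379089-21381673. Of these, X 4714576-4718025 and X 4729283-4734170 lay in the most covered tile.

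The 10 widest members and the 10 of highest score were different regions that differed in both width and support. The widest spanned 5265 to 6804 bp, had scores of 0.42 to 0.54, and each was touched by at least 1 list. Besides those already named they were X 6929874-6936065, X 18317221-18323368, X 12026224-12031847, X 10545697-10551255, X 21003169-21008484 and X 10920468-10925732. The highest-scoring members had scores of 1.18 to 2.79 and widths of 1001 to 1614 bp, and none was touched by any list. They were X 3309117-3310117, X 9402201-9403201, X 15911308-15912310, X 15929024-15930024, X 21606061-21607139, X 5474418-5475441, X 20812244-20813413, X 2725348-2726489, X 21329809-21330851 and X 21468048-21469661. X 15911308-15912310 and X 15929024-15930024 lay within 20 kb of each other. All of the highest-scoring members but X 21468048-21469661 were narrower than 1301 bp. Of all members that narrow, 16.4% were touched by at least 1 list, against 79.6% of those wider than 3 kb. The part of width in the differing support was not tested.

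A smaller share of replicate regions recurred in another replicate on X. On average 10.7% ± 2.8 of the X body regions of a replicate touched a region of another replicate, against 21.2% ± 4.1 on 2L, 18.3% ± 2.7 on 3L and 21.3% ± 2.8 on 3R (SD over 12 ordered pairs). Divided by the mean covered share of the replicate lists, in which X is lower, the order turned, with 5.92 on X and 5.04, 5.26 and 4.97 on 2L, 3L and 3R. Of the X bases that any replicate list held, 90.6% were in a single list, 9.04% in 2 lists, 0.328% in 3 and none in all 4. Between pairs of replicates, the covered shares of 200 kb tiles had a Pearson's r of 0.48 to 0.69 and Spearman's rho of 0.56 to 0.67 on X over 104 tiles. On the arms r was 0.76 to 0.83 on 2L, 0.64 to 0.75 on 3L and 0.74 to 0.80 on 3R. In tiles of 50 kb r was 0.29 to 0.52 on X and 0.46 to 0.68 on the arms. The tiles of an arm are not independent, nor are the 12 ordered pairs, which come from 4 lists. X tiles held fewer regions, and the part of this in the lower r was not tested.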

How the data were processed

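The submitters' processing notes name Bowtie 0.12.7, a read aligner. Positions are on FlyBase r5, per the file headers. The region caller, its thresholds and the combining of replicates were not stated in the labels or headers. The deposited lists give start, end and 1 score per region, the authors' own value of unknown scale, which served to order and describe regions of the same list. The shortest region was 1301 bp in the replicate lists and 1001 bp in the combined list.

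Regions were assigned to a body by midpoint and covered bases were clipped to it. Lengths were not corrected for assembly gaps or repeats. Tiles started at the first base of a body, and an incomplete last tile was left out. X was compared with the pooled bodies of 2L, 3L and 3R within each replicate by an exact permutation test that flips the signs of the log2 ratios (two-sided), with Benjamini-Hochberg adjustment over 28 comparisons (7 measures, against the pooled arms and each arm). Python 3.11.15, numpy 2.4.6, scipy 1.17.1 and matplotlib 3.10.9 were used. The density ratio and the clumping in tiles of 200 kb were tested on simulated lists of known density and clumping. Median width, spacing, score and support were not tested in this way.

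Named regions, tiles, gaps and runs are the 10 widest regions, the 10 of highest score, those touched by 3 or more lists, the 10 most and 10 least covered tiles of 200 kb, the 10 longest gaps and the 10 runs with most regions. Tile steps, the score bands, the correlation along the arm, the equal-density comparison and the windows of 1 Mb were chosen after the values were seen. The bounds, measures and settings were chosen with earlier results of these data known. The gene table used here is on another build, so no gene or sequence is given.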

Additional observations from a re-analysis of the deposited data

How the results depend on the processing

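Of 106 recomputed values, 88 kept their direction and, where they had no test, their size within limits set for each kind of value, 8 reversed and 10 moved. Within these limits, keeping only scores from the median up changed 1866 members to 1513 and 75 gaps of 50 kb or more to 86. All 4 replicate lists had the same sign for the covered share, density, width, spacing, score and support ratios of X to the pooled arms. Leaving 1 replicate out could therefore not reverse these means. Those values are counted among the 88 and do not test direction. The mean ratios also kept their direction in the replicate lists under the other settings tried. As no exact p of 4 values can pass 0.05, these ratios were judged by direction alone. They could still shrink: with only the upper scores, from the median up, the log2 ratio became -0.30 ± 0.18 for covered share, -0.17 ± 0.16 for density (exact p = 0.25) and 0.17 ± 0.49 for spacing (exact p = 0.5; SD, n = 4), so for density and spacing single replicates differed in sign. The clumping difference at 200 kb had no stable direction: it was -0.042 against 2L alone, -0.074 above the median score, -0.029 with tiles moved by 100 kb, 0.12 ± 0.09 and positive in 4 of 4 replicates against 3L alone (SD, n = 4), and between -0.016 and 0.057 without 1 replicate. In the combined list the log2 ratio of median spacing was -0.34 with the arms cut to the density of X and -1.01 above the median score, where that of density was 0.48. The percentage of body in gaps of 50 kb or more, 17.1 points higher on X, was 9.81 points higher at equal density and 1.20 lower (-1.20) above the median score, and the 50 kb clumping difference of 0.30 became 0.27. These combined-list settings were chosen after seeing the data. Counting only regions of at least 1301 bp left 1120 members, of which 45.5% were touched. With overlap of 50% required, 26.9% were touched, and without 1 replicate 24.7% to 30.7% were. Runs numbered 47 with gaps of at most 2 kb, since fewer gaps qualify. For other shifts the cause was not tested. The held-out log2 ratios ran from 1.14 to 1.23 for dense tiles and from -2.11 to -1.83 for sparse tiles without 1 replicate. No paired analysis was possible because no input values, which share the replicate numbers, were used; X and the arms were themselves paired within each replicate list. For sparse held-out tiles the ratio was not computed in tiles of 50 kb. Unknown depth limits every statement on stretches without regions.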
